A study of Homo sapiens and Mus musculus with 10 samples.

Results

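The HOX genes encode the homeodomain transcription factors that give cells their position along the body axis. They lie in 4 clusters, HOXA on chromosome 7, HOXB on chromosome 17, HOXC on chromosome 12 and HOXD on chromosome 2. The genes examined were taken from a fixed list by symbol, without use of any measured value: 38 of 19970 human protein-coding genes on the autosomes and X, with 10 in HOXA, 10 in HOXB, 9 in HOXC and 9 in HOXD. The 38 mouse genes of the same names were read beside them, of 21755 mouse genes. Accessible chromatin had been profiled by bulk ATAC-seq, in which the transposase Tn5 inserts adapters into open DNA, in 10 libraries from 5 untreated cell lines with 2 replicates each. The human lines were HFF1 (fibroblasts from foreskin), HEK293T (kidney-derived cells with SV40 large T antigen), K562 (from an erythroleukaemia) and GM12878 (B lymphoblasts), and the mouse line, mESC, consists of embryonic stem cells kept feeder-free with leukaemia inhibitory factor. Frozen cells of every line were thawed and tagmented as nuclei, and stained nuclei were sorted before amplification. The labels name no genotype, passage or separate culture behind the replicates, so each p-value below measures only the spread between these libraries, which may be technical.

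As background, HOX genes are numbered by paralogue group, and the order of the groups along a cluster follows the order in which the genes are switched on in the embryo and their anterior to posterior limits of expression. Low-numbered genes act in the hindbrain and neck, middle groups in the trunk, and groups 9 to 13 in the limbs, genital region and tail end. Polycomb repressive complex 2 marks silent HOX chromatin, Trithorax proteins such as KMT2A counter it, CTCF sites divide the clusters, and HOX proteins bind DNA together with PBX and MEIS partners. Adult fibroblasts are known to keep a HOX pattern that reflects the body site they came from.

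The lists held between 52170 and 127560 peaks in the human libraries, and 138452 and 142297 in mESC. The background level of a list, which is proportional to its depth within a species, was 0.465 and 0.466 reads per window in the HEK293T libraries, 1.71 and 1.73 in GM12878, 1.97 and 2.21 in K562, and 2.06 and 2.43 in HFF1. HEK293T was thus the shallowest line, and a promoter without a peak there was less well resolved. The marker promoters set for each line were open in 5 of 5 cases in GM12878, HFF1 and mESC and in 4 of 5 in K562, where HBG1 had no peak, and in HEK293T. Several of these promoters were also open elsewhere, PAX5 in all 4 human lines among them.

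A few short sequences show where the open regions of the clusters lie. The first set holds matches to the core CTCF consensus, whose 12 positions are in capitals below, searched on both strands within 100 bp of the summit, a window of 201 bp. Among 193 regions of the 4 human cluster windows, 8 (4.15%) held a match, against 3.88% of 243200 human regions, and no region of the HOXC window held one. For each of the other clusters the match or matches in the region found in most libraries are given as 30 bases of GRCh38 read 5′ to 3′ on the strand of the match, with the consensus in capitals. The HOXA site lies at chr7:27179897-27179926 on the minus strand in an exon of HOXA10, 25 bp from the summit. The HOXB site lies at chr17:48636619-48636648 on the plus strand in an exon of the non-coding gene LINC03057. The HOXD region, in an exon of EVX2, holds a pair, at chr2:176080075-176080104 and chr2:176079983-176080012 on the minus strand.
HOXA, HOXA10: gcgcagccgCCACGAGATGGCgcacttccg
HOXB, LINC03057: agagaccaaCCTCTAGGCGGCgccctggcg
HOXD, EVX2, near the summit: acgtcgccaCCGCCAGGGGGCcgcgcccgc
HOXD, EVX2, 98 bp from the summit: ctgccgctgCCGCCAGGGGGCgccccgggg

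The HOXA and HOXB regions were open in all 8 human libraries, and the EVX2 region in the 6 libraries of HEK293T, HFF1 and K562. At the EVX2 region the peak stood 16.2 and 13.5 times over background in HEK293T, 8.48 and 9.32 times in K562 and 4.32 and 5.89 times in HFF1, and neither GM12878 library had a peak there. A sequence match is a description of these letters and not evidence of bound CTCF.

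The second set holds a region open in 1 human line only, shown whole or as the 300 bases about the summit on the plus strand of GRCh38, 1 from GM12878 and 1 from HEK293T, the lines that lie lowest and highest by rank in the HOXD window below. The GM12878-only region at chr7:27083732-27084031 lies between genes in the HOXA window, 18801 bp from the nearest listed start site, that of HOXA2. Its peaks reached 14.2 and 14.8 times background, in percentiles 87.2 and 87.9 of their lists. It carries a match to the AP-1 consensus TGANTCA, in capitals. The HEK293T-only region at chr2:176158146-176158358 lies in an intron of HOXD3, 915 bp from an annotated start of that gene, and reached 9.26 and 7.84 times background. It held no match to the CTCF or AP-1 consensus, none to AGATAA, bound by factors of the erythroid GATA family, and none to TGATTNAT, a joint site of PBX and HOX proteins.
GM12878 only, HOXA window: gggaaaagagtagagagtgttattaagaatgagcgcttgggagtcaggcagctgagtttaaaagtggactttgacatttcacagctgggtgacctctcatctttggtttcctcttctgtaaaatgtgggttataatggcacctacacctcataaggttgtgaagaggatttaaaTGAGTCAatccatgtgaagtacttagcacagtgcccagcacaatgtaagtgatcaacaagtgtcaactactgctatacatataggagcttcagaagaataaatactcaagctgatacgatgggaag
HEK293T only, HOXD3 intron: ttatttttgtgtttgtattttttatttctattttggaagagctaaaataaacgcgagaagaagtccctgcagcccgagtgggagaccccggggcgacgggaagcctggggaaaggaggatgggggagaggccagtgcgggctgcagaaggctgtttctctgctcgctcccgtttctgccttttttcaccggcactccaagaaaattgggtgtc

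Promoters were scored by peaks overlapping the 1 kb on either side of any annotated start site, and a promoter is called open in a line when both libraries have such a peak. Unless a region is named, the fold given for a gene is that of its promoter peak with the smallest p-value in each library. These peaks can lie at different sites in replicates or lines. HOX promoters were open less often than promoters at large in GM12878, HEK293T and K562, and at near the same share in HFF1. In GM12878, 19 of 38 were open, against 71.9% of all coding genes. HEK293T also had 19, against 67.8%, and K562 had 18, against 70.4%. HFF1 had 28, which is 73.7%, against 76.2%, and mESC had 34, against 73.1% of mouse genes. The members present also ranked lower: the strongest promoter peak of a HOX gene lay at a median percentile of 44.8 to 67.9 of its list across the 10 libraries, against 82.4 to 91.2 for all genes with a promoter peak. Fewer cells with an open site and less opening per cell cannot be told apart in these bulk libraries.

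**Figure D1:**
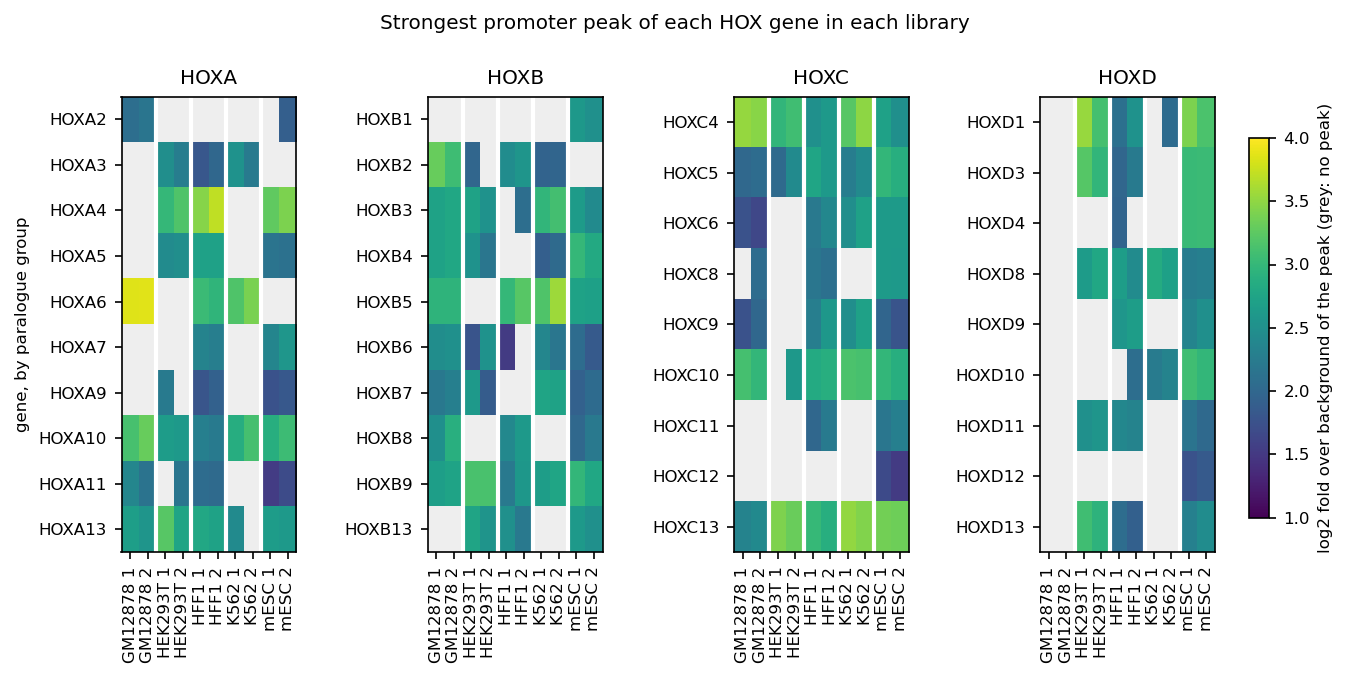
Strongest promoter peak of each of the 38 HOX genes (rows, by cluster and paralogue group) in each of the 10 libraries (columns); colour is the log2 of the authors' fold of the peak over local background, and grey marks no promoter peak. GM12878 is grey for all 9 HOXD genes, HFF1 is filled from HOXA3 to HOXA13, and the mESC columns, read on the mouse genes, are nearly full.

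The count for HFF1 changed most when depth was evened out. With pileups scaled to the background level of HEK293T, an alternative added after the data were seen, 15 HOX promoters remained open in HFF1, 12 in GM12878 and 13 in K562, beside 19 in HEK293T, while 68.9%, 67.8% and 64.1% of all coding genes were open in the first 3. Among the 50000 strongest peaks of each list, the counts were 8 for HFF1, 11 for GM12878, 15 for both K562 and HEK293T, and 16 for mESC. With Ensembl's canonical start site alone, 22 were open in HFF1, 16 in HEK293T, and 12 in both GM12878 and K562. The lead of HFF1 over the other human lines was therefore not seen in the first 2 of these alternatives.

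HOX promoters were seldom shared by all lines. Only 5 of 38, HOXA10, HOXB9, HOXC4, HOXC5 and HOXC13, were open in all 4 human lines, against 59.7% of coding genes. Another 13 were open in exactly 3 lines, against 8.76%, 9 in 2 lines against 6.85%, 7 in 1 line against 7.62%, and 4 in none against 17.1%. HOXB1, which acts in the hindbrain, HOXC12 and HOXD12 had no peak in any human library, as did 14.7% of coding genes. No HOX promoter was open in HEK293T alone or K562 alone, patterns held by 0.336% and 1.12% of genes. HOXA6, HOXB5, HOXC6 and HOXC9 were open in all human lines but HEK293T, with no peak there, as 2.08% of genes were, and none was missing in K562 alone (1.72% of genes). HOXD4 had a peak in 1 HFF1 library only.

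HOX promoters did not have a lower ratio of observed to expected CpG than promoters at large, but their GC content was lower. From 250 bases before to 50 after the canonical start, the ratio of observed to expected CpG had a median of 0.828 over the 38 HOX genes and 0.776 over all coding genes. Over the same bases the median GC content was 55.3% for HOX genes and 63.7% for all coding genes. A ratio over 0.6, called CpG-rich here, was found for 32 HOX genes and for 67.4% of all genes. Of those 32, with peaks at any start counted as above, 16 were open in GM12878, 17 in HEK293T, 25 in HFF1 and 15 in K562, while CpG-rich genes at large were open in 87.5%, 87.1%, 93.0% and 87.1% of cases. In all 4 lines together, 9.38% of CpG-rich HOX promoters were open, against 78.5% of CpG-rich promoters at large. The difference between HOX and other promoters was thus larger among CpG-rich genes than among all genes in each human line. CpG-rich HOX promoters had a median GC content of 58%, against 68% for CpG-rich promoters at large, so these sets were not matched in GC content.

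**Figure D2:**
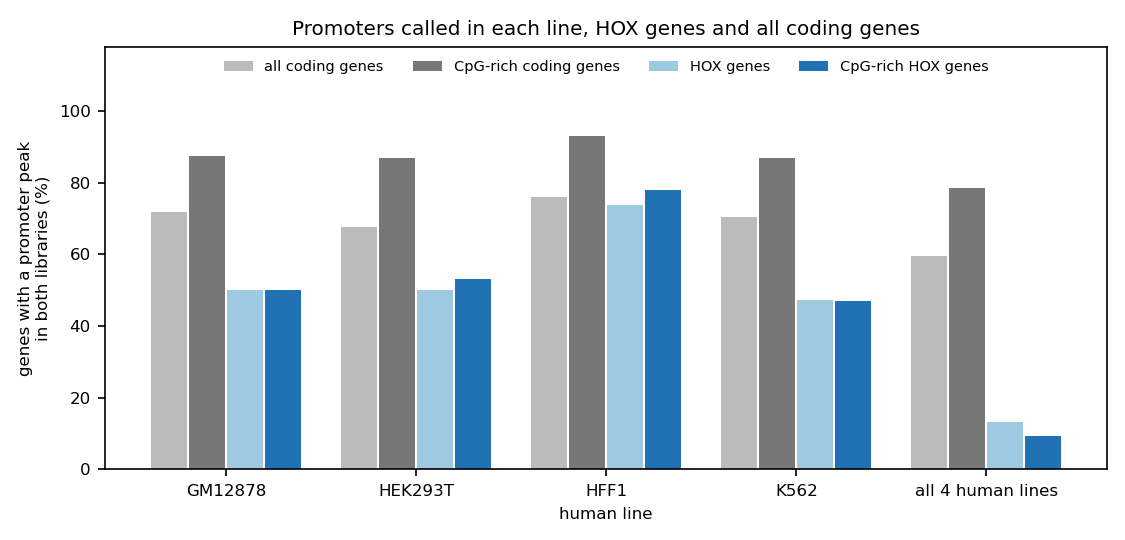
Share of genes with a promoter peak in both libraries (y axis, percent) in each human line and in all 4 lines together, for all 19970 coding genes, the 13456 CpG-rich ones, the 38 HOX genes and the 32 CpG-rich HOX genes. HOX bars are shorter than the grey bars in GM12878, HEK293T and K562, and shortest for all 4 lines together. In HFF1 the bar of all HOX genes is near that of all coding genes, and the CpG-rich HOX bar is shorter than that of CpG-rich coding genes.

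The HOXA cluster was most open in HFF1. There 9 of 10 genes, every listed gene from HOXA3 to HOXA13, had an open promoter, against 5 in GM12878, 5 in HEK293T, 3 in K562 and 7 in mESC. With scaled pileups, 7 HOXA promoters remained open in HFF1, 5 in HEK293T and 2 in both GM12878 and K562, and among the 50000 strongest peaks HFF1 and HEK293T had 5 each. HOXA4, a neck and upper trunk gene, had the best-ranked HOXA promoter in HFF1, HEK293T and mESC. Its strongest peak reached 11 and 13.1 times background in HFF1, 7.97 and 9.01 in HEK293T, and 9.63 and 10.6 in mESC, with no peak in any GM12878 or K562 library. HOXA5, which is needed for lung and trachea development, had the same set of open lines, at 6.55 and 6.58 in HFF1 and 5.45 and 5.60 in HEK293T. HOXA7 was open only in HFF1 among the human lines, at 5.07 and 4.88 times background, as were HOXC11 and HOXD9, and 2.05% of coding genes were open in HFF1 alone.

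HOXA2, a gene of the hindbrain and second pharyngeal arch, was open only in GM12878, as 1.4% of coding genes were, and its peaks were weak. They reached 4.24 and 4.48 times background on pileups of 11 and 12 reads, in percentiles 2.06 and 4.01 of their lists, and the promoter was no longer called when the −log10 q minimum was raised to 5. HOXA6 held the strongest HOX promoter peak by fold in GM12878, at 14.5 and 14.6, and was also the best-ranked HOXA promoter in K562, at 9.05 and 10.5; HFF1 had 8.25 and 7.80 and HEK293T none. That peak, at chr7:27150507-27151438 in an exon of the antisense gene HOXA-AS3, lay at an alternative HOXA6 start, and no human library had a peak at the canonical HOXA6 start. ATAC-seq carries no strand, so it cannot be assigned to HOXA6 or HOXA-AS3.

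At the posterior end, HOXA10, which patterns the uterus and hind limb and marks early blood cells, was open in all 8 human libraries. Its strongest peak reached 8.74 and 9.89 times background in GM12878, 7.28 and 8.66 in K562, 6.29 and 6.13 in HEK293T and 4.89 and 4.67 in HFF1. These peaks lay at an alternative start, in the region with the CTCF match shown above, and only HFF1 also had a peak at the canonical start. HOXA13, a gene of the digits and the urogenital tract, had 6.97 and 6.61 in HFF1, 9.31 and 6.72 in HEK293T, 6.44 and 5.93 in GM12878, and 5.42 in a single K562 library.

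The HOXB cluster showed another order of the lines. GM12878 had 8 of 10 HOXB promoters open, each of HOXB2 to HOXB9, and K562 had the same without HOXB8, which makes 7, while HEK293T had 6 and HFF1 had 5. With scaled pileups the HOXB counts were 8 in GM12878, 6 in HEK293T, 5 in K562 and 2 in HFF1. HEK293T sets that scale, so its own count could not change there. With a −log10 q of at least 5, and with windows of 500 bp, HEK293T had 3 HOXB promoters open and HFF1 5. Among the 50000 strongest peaks HEK293T had 3 and HFF1 1. HOXB4, a regulator of blood stem cells, and HOXB7 were open in the other 3 human lines and had no peak in either HFF1 library, a pattern seen in 0.33% of coding genes. HOXB4 reached 6.62 and 6.90 times background in GM12878, 3.74 and 4.10 in K562 and 5.79 and 4.53 in HEK293T. HOXB7 had 4.58 and 4.89, 6.71 and 6.62, and 6.13 and 3.66 in the same lines. The HEK293T peaks of HOXB4 lay in different regions, in percentiles 20.9 and 3.08 of their lists. Those of HOXB7 lay in percentiles 47.6 and 0.734. HOXB4, HOXB7 and also HOXB6 were not called in HEK293T with a −log10 q of at least 5, among the 50000 strongest peaks or with windows of 500 bp. The cause of the missing HFF1 peaks was not tested. The HOXB4 peak of GM12878 also lay in a promoter window of HOXB3, whose 12 annotated starts reach over HOXB4 and HOXB6, so those calls are not independent.

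HOXB2, a hindbrain gene, had the best-ranked HOXB promoter in GM12878, at 9.87 and 8.36 times background, with 5.48 and 5.91 in HFF1, 3.89 and 3.93 in K562 and 3.98 in 1 HEK293T library. HOXB5 was best in HFF1, at 7.96 and 9.31, and had 9.06 and 11.8 in K562, 7.73 and 7.71 in GM12878 and no peak in HEK293T. HOXB9, a gene of the ribcage and mammary gland, was open in all 4 human lines: 8.84 and 8.78 in HEK293T, 6.38 and 6.81 in K562, 6.39 and 6.70 in GM12878 and 4.65 and 6.03 in HFF1. The 6.03 peak lay at another site, and the region open in all 8 human libraries had 4.65 and 4.35 in HFF1. HOXB13, a prostate and hindgut gene that stands apart from the rest of its cluster, was open in HEK293T at 6.73 and 5.87 and in HFF1 at 5.69 and 4.64. The 5.87 peak lay at a separate region, and the region of the 6.73 peak had 5.45 in the other HEK293T library. Neither blood line had a peak at HOXB13.

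In HOXC, HFF1 had 8 of 9 promoters open, all but HOXC12, GM12878 and K562 had 6, and HEK293T had HOXC4, HOXC5 and HOXC13 only. The lead of HFF1 was not seen with scaled pileups, where HFF1 had 4 HOXC promoters open, K562 5, HEK293T 3 and GM12878 2, nor among the 50000 strongest peaks, where K562 had 5 and the other human lines 2 each. HOXC4, known from lymphoid cells, was the best-ranked HOXC promoter in both blood lines, at 11.5 and 11.1 times background in GM12878 and 9.30 and 11.2 in K562. It had 7.89 and 8.45 in HEK293T and 5.69 and 6.09 in HFF1. These peaks form the region chr12:54017390-54018520, near an alternative HOXC4 start that lies between HOXC5 and HOXC8. Their summits lay 1051 to 1173 bp from that start, outside its promoter window. HOXC4 was not called in K562 with windows of 500 bp. The canonical HOXC4 start, at the low-numbered end of the cluster, had peaks in both libraries of GM12878 and HEK293T, in 1 HFF1 library and in no K562 library. HOXC13, a hair and nail gene at the other end of the cluster, reached 11.4 and 10.8 in K562, 10.7 and 9.98 in HEK293T and 5.06 and 5.36 in GM12878. These peaks form a region with weaker peaks of HFF1, at 4.29 and 4.06, so HOXC13 was open near its canonical start in all 4 lines. The strongest HFF1 peaks, at 8.04 and 7.36, lay at an HFF1-only region with summits 1005 and 1004 bp from the start. Besides HOXC4 and HOXC13, HEK293T had promoter peaks only at HOXC5 and, at 6.07 in 1 library, at HOXC10. HOXC10 was open in the other 3 lines, at 7.12 and 7.36 in HFF1, 8.90 and 8.77 in K562 and 8.69 and 7.95 in GM12878. HOXC6 and HOXC9 shared a peak in GM12878, K562 and 1 HFF1 library. In GM12878 this peak, at 3.39 and 3.12, was the only one of either gene found in both libraries. HFF1 and K562 also had the region chr12:53999916-54000730 near a HOXC9 start, at 4.85 and 6.02 and at 4.28 and 4.84. The only HOXC6 peak found in both HFF1 libraries, at 4.63 and 5.25, formed the region chr12:54016673-54016948, which also lay in a HOXC4 promoter window. HOXC6 was not called in HFF1 with windows of 500 bp. HOXC11, a hind limb and kidney gene, had 3.99 and 4.66 in HFF1 and no peak in the other human libraries.

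In HOXD, GM12878 stood apart from the other lines. It had no promoter peak at any of the 9 HOXD genes in either library, while HEK293T had 5 open, HFF1 6, K562 2 and mESC 9. In HFF1 the count fell to 2 with scaled pileups and to 0 among the 50000 strongest peaks, where HEK293T kept 5 and K562 had 1. HOXD1 was open in HEK293T at 11.6 and 8.65 times background and in HFF1 at 4.30 and 5.76, with 4.13 in 1 K562 library. HOXD8 was open in HEK293T at 6.26 and 6.88, in HFF1 at 6.38 and 5.46 and in K562 at 7.20 and 6.51, where it was the best-ranked HOXD promoter. HOXA3 was the only other HOX gene open in these 3 lines with no GM12878 peak, a pattern held by 1.33% of coding genes. Its HEK293T and K562 peaks lay at an alternative start, at chr7:27113426-27114041. The HFF1 peaks lay at the canonical start, at chr7:27152445-27152779, so HFF1 shared no HOXA3 peak with them. HOXD13, the digit and genital gene at the posterior end, had 8.45 and 7.70 in HEK293T, its best-ranked HOXD promoter, 4.20 and 3.79 in HFF1 and none in the blood lines. HOXD11, a forearm and kidney gene, was the best-ranked in HFF1 at 5.23 and 5.07, at an alternative start. The canonical HOXD11 start had peaks in both HEK293T libraries and in 1 HFF1 library. HOXD9 had 5.97 and 6.36 in HFF1 only, and HOXD10 had 4.74 and 5.05 in K562.

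GM12878 was not without open chromatin in HOXD. Each library had 5 peaks in the window of 198.2 kb, against 11 to 19 in the other human libraries, and none of them touched a promoter of a coding gene. Those regions included chr2:176097282-176098106, between HOXD13 and HOXD12, and chr2:176140364-176141150, in an intron of HOXD3, which were open in all 8 human libraries. From the latter to the end of HOXD1 the GM12878 lists held no peak over 49.9 kb. In K562 the longest stretch without a peak in HOXD began at the same region and measured 34.0 and 33.9 kb. The alternative peak sets, windows and overlaps tried could only remove calls, so the count of 0 HOXD promoters in GM12878 could not change under them.

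**Figure D3:**
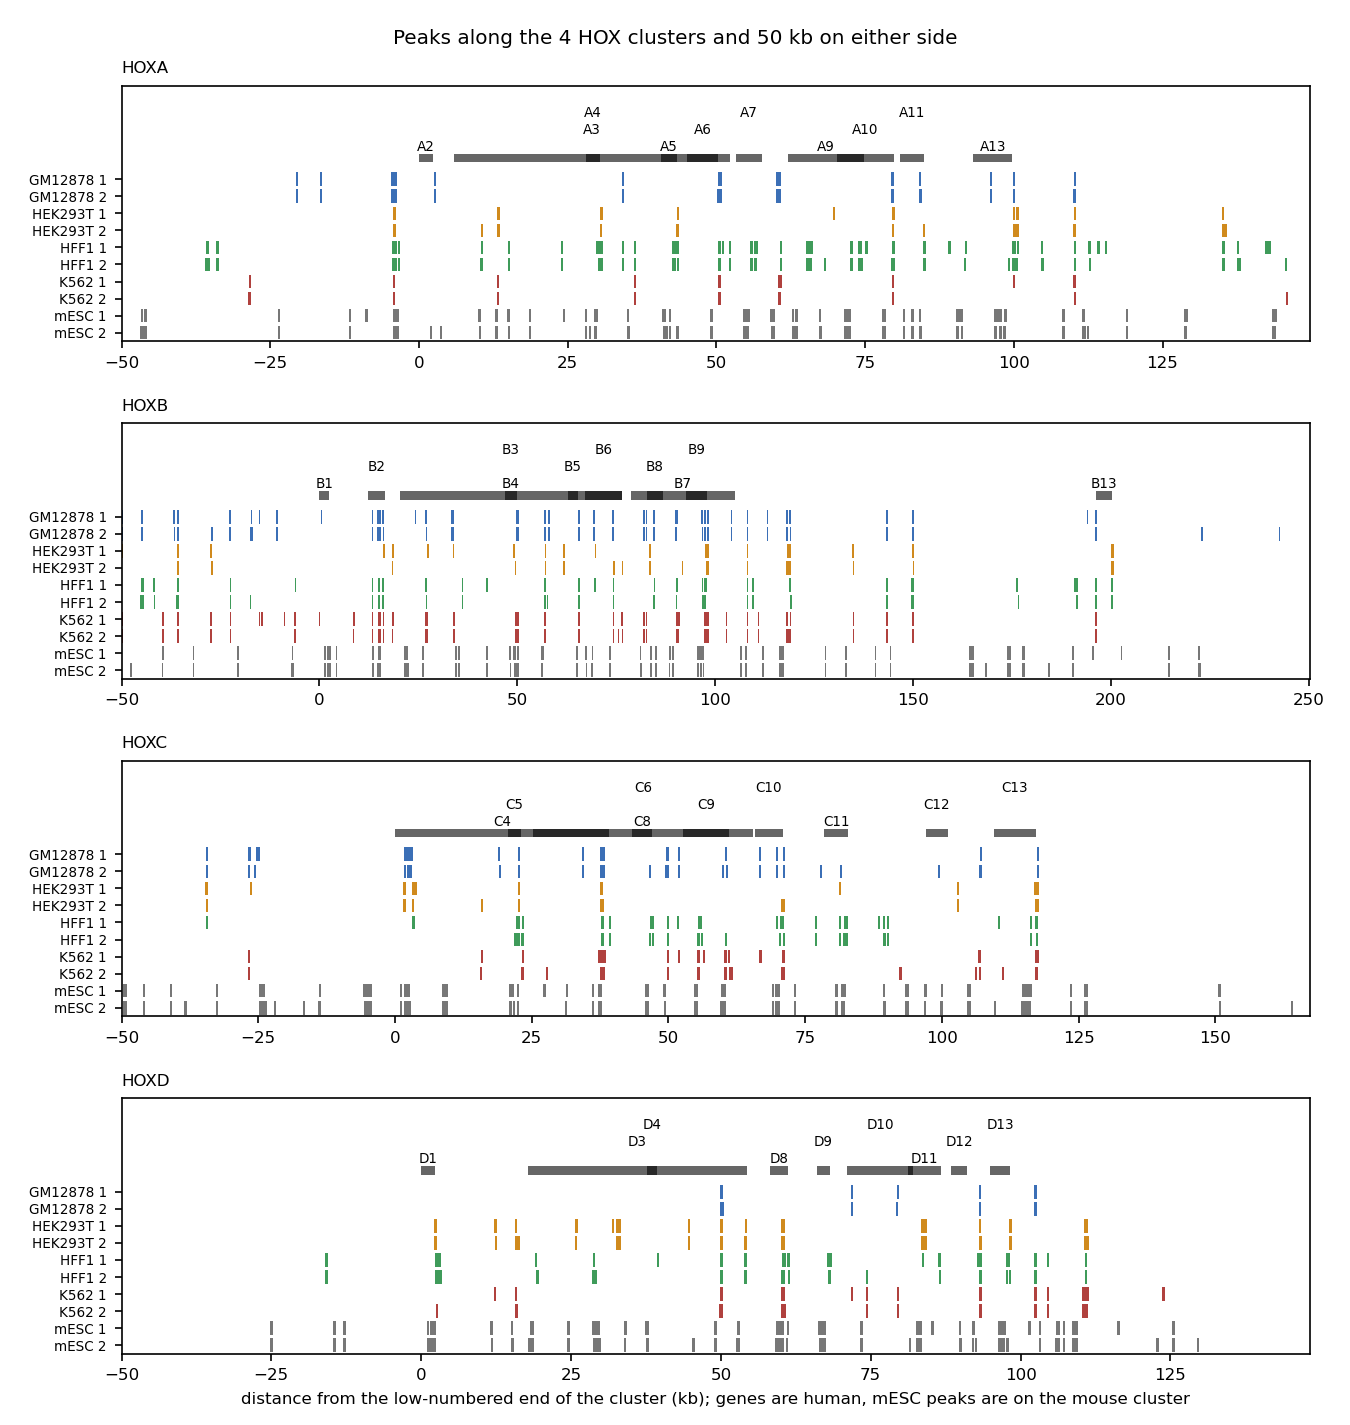
Peaks (coloured bars, drawn at least 0.4 kb wide) of the 10 libraries (rows) along each HOX cluster and its flanks; the x axis is the distance in kb from the low-numbered end of the listed genes, black bars are the human genes, and the mESC rows are drawn on the mouse cluster. The 5 GM12878 peaks of HOXD leave the low-numbered end of the cluster empty, and the HFF1 rows fill the HOXA cluster.

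Read by paralogue group over all clusters, HFF1 had 13 of 16 promoters open in groups 9 to 13, 11 of 15 in groups 4 to 8 and 4 of 7 in the listed groups 1 to 3. GM12878 had 7, 9 and 3 of these, HEK293T 7, 8 and 4, and K562 6, 9 and 3. These stand beside the shares of all coding genes given above, 76.2% in HFF1, 71.9% in GM12878, 67.8% in HEK293T and 70.4% in K562. With scaled pileups HFF1 had 7 open in groups 9 to 13, as HEK293T did, and GM12878 had 3 and K562 5, so the lead of HFF1 in these groups was not seen there. All of HOXA13, HOXB13, HOXC13 and HOXD13 were open in HEK293T and HFF1, while GM12878 had HOXA13 and HOXC13 and K562 had HOXC13. HOXB13 and HOXD13 were no longer called in HFF1 with scaled pileups. The open sets of the blood lines shared 15 HOX genes, 78.9% of the GM12878 set and 83.3% of the K562 set, against 90.6% and 92.6% over all coding genes. HEK293T and GM12878 shared 10, which is 52.6% of each, against 92.7% and 87.5% over all genes. HEK293T and HFF1 shared 15, 78.9% of the HEK293T set and 53.6% of the larger HFF1 set, against 97.1% and 86.5%. Each of these shares was lower for HOX genes than for coding genes at large. Sharing is counted by gene, and lines can be open at different starts, as HEK293T and HFF1 were at HOXA3 and HOXD11.

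The mouse stem cell libraries had open promoters over nearly the whole of the 4 clusters. All 9 genes of Hoxc and of Hoxd were open, with 9 of 10 in Hoxb and 7 of 10 in Hoxa. Hoxa3, Hoxa6 and Hoxb2 had no peak and Hoxa2 had one of 3.75 times background in 1 library. The 3 genes without a peak in any human library were all open in mESC: Hoxb1 at 6.07 and 5.70, Hoxc12 at 3.2 and 2.86 and Hoxd12 at 3.38 and 3.59 times background. Hoxc13 ranked highest of the Hoxc promoters, at 10.3 and 10.1, and Hoxd10 of the Hoxd promoters, at 8.46 and 7.92. The mouse lists were also long, and 16 HOX promoters remained among their 50000 strongest peaks, against 61.9% of mouse genes. Species, annotation and cell type differ together here and cannot be told apart.

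The length of DNA covered by peaks was then compared over each cluster with 50 kb on either side. The HOXA window had 13777 ± 1187 bp covered in HFF1 (mean ± SD, n = 2 libraries here and below), 4992 ± 331 in GM12878, 3808 ± 170 in HEK293T and 2440 ± 104.7 in K562. HOXB had 14327 ± 97 bp in GM12878, 13089 ± 615 in K562, 9857 ± 977 in HFF1 and 5587 ± 1141 in HEK293T. HOXC had 6992 ± 520 bp in HFF1, 6350 ± 670 in GM12878, 5844 ± 96 in K562 and 3443 ± 149 in HEK293T, and neighbours among the first 3 overlapped in range. HOXD had 6554 ± 699 bp in HFF1, 5976 ± 550 in HEK293T, 4298 ± 318 in K562 and 1796 ± 185 in GM12878, with HFF1 and HEK293T overlapping. Both HFF1 libraries lay above the other 6 in HOXA, as in 42% of 200 kb tiles of the genome, and both HEK293T libraries lay below the others in HOXB and HOXC, as in 42.1%. Both K562 libraries lay lowest in HOXA, as in 14.6% of tiles, and both GM12878 libraries lay lowest in HOXD, as in 4.14%. The mouse windows had between 17764 ± 33 bp (Hoxd) and 21848 ± 357 bp (Hoxc).

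**Figure D4:**
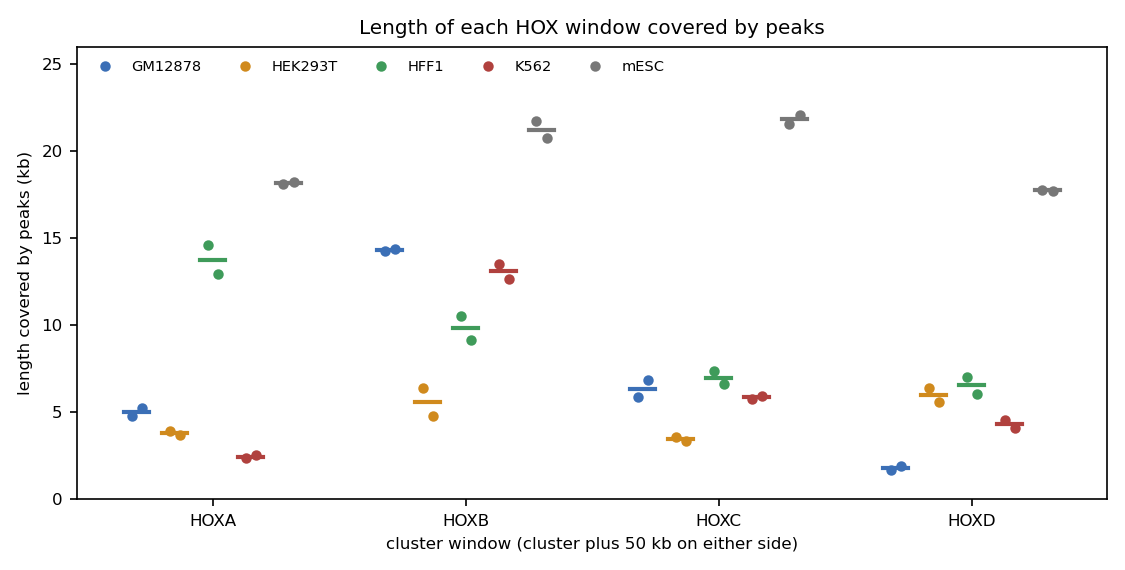
Length covered by peaks (y axis, kb) in each HOX window (x axis) for the 5 lines; points are the 2 libraries of a line and bars their mean. HFF1 stands above the other human lines in HOXA, GM12878 and K562 lead in HOXB, and GM12878 lies lowest in HOXD.

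The 4 human lines were tested together, since a permutation test of 2 libraries against 2 cannot reach 0.05. Eta squared, the part of the variance that lies between lines, was 0.99 in HOXA, 0.972 in HOXB, 0.967 in HOXD and 0.95 in HOXC. In an exact one-sided permutation test over all ways to pair the 8 libraries, p was 0.00952 in HOXA and HOXB, the smallest it can give, 0.019 in HOXD and 0.0476 in HOXC. After Benjamini-Hochberg adjustment over 13909 tiles of 200 kb and the 4 windows, HOXA (adjusted p = 0.0236), HOXB (0.0236) and HOXD (0.0358) passed 0.05 in this exact permutation test and HOXC (0.061) did not. Of all tiles 72.9% passed, so a difference between lines is not particular to HOX windows. No difference between single named lines was tested. Depth enters such lengths, and it was read out within each library by rank. HEK293T covered its HOXD window more than 99.8% and 99.5% of tiles in its own lists, and HFF1 its HOXA window more than 99.7% and 99.4%, while GM12878 covered HOXD more than 45.4% and 48.8%. In HOXC, HEK293T had the shortest covered length but the highest ranks, 93.7% and 92.8%. K562 had 88.9% and 91.3% there, GM12878 81.9% and 86.3%, and HFF1 79.7% and 78.8%. In HOXB, HEK293T had 97.8% and 93.6%, K562 97.9% in both, GM12878 96.5% and 96.4%, and HFF1 81.3% and 78.8%.

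Single promoters were tested in the same way over 17035 genes with a promoter peak in at least 1 human library, 35 HOX genes among them. The covered length of 8 HOX promoters differed between the lines at an adjusted p of 0.0408 in the exact permutation test: HOXA6, HOXA13, HOXB3, HOXB4, HOXB7, HOXC4, HOXC5 and HOXC9. At 8 of 35 they stand beside 23.3% of all genes tested. HOXC4 had 1940 and 1814 bp covered in GM12878, 713 and 722 in HEK293T, 542 and 325 in K562 and 279 and 292 in HFF1. At HOXC5, its neighbour, HFF1 lay highest instead of lowest, with 945 and 1120 bp, and the other lines had 312 and 418 in GM12878, 260 and 311 in K562 and 186 and 187 in HEK293T. HOXC9 had 1452 and 1466 bp in K562, 697 and 858 in HFF1, 153 and 433 in GM12878 and 0 in HEK293T. In this exact permutation test a promoter covered in 1 line only cannot go below p = 0.143, nor one covered in 2 lines below 0.0286. The latter had an adjusted p of 0.0567 in this test, so promoters covered in 1 or 2 lines only could not be called. Among these were HOXA2, HOXA7, HOXC11 and HOXD9, covered in 1 line, and HOXA4, HOXA5, HOXB13, HOXD3, HOXD11 and HOXD13, covered in 2. No HOX promoter was called when a library of GM12878, a library of K562 or HFF1 replicate 1 was left out, where the smallest adjusted p over all genes lay between 0.0509 and 0.0605.

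Merged over the 8 human libraries, the 4 windows held 193 regions, of which 42.0% lay at promoters of coding genes, against 14.1% of all human regions. Of the 193 regions, 13 (6.74%) were open in all 4 lines, against 8.53% genome-wide. Among promoter regions alone the share was 6.17% in the windows and 32.7% genome-wide. Away from promoters it was 7.14% in the windows, 8 regions, and 4.56% genome-wide. HFF1 had 33 regions open in no other human library, 17.1% of the window regions against 21.2% genome-wide, and 14 of them lay in the HOXA window. GM12878 had 12 such regions (6.22% against 14.7%), HEK293T 8 (4.15% against 1.78%) and K562 6 (3.11% against 6.31%). The AP-1 consensus was found in 7.25% of the window regions and in 19.0% of all regions, and among HFF1-only regions in 15.2% and 31.7%. The GATA consensus was held by 3 of the 6 K562-only regions of the windows, and by 31.0% of all K562-only regions. The PBX-HOX consensus was found in 5.18% of window regions and 3.68% of all regions.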

How the data were processed

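The authors deposited 1 peak list per library, with replicates not pooled. The submitters' processing notes name cutadapt 3.2, Bowtie2 2.4.2, Picard, MACS2 2.2.7.1 and the builds hg38 and mm10; their settings, the read shift and the treatment of duplicates are not given in the sources used here. Each deposited peak has a fold (the ratio of summit signal to local background in that library), a −log10 p-value and a −log10 q-value. These deposited values were used inside their own list only, to describe, rank or select peaks. Each list began at a −log10 q of 2 or slightly more. A fold falls with the background, so folds of lines of unequal depth are shown side by side and not compared by test.

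Gene models were GENCODE release 44 (GRCh38) and a GENCODE release for GRCm38. Promoter windows took 1 kb on either side of any start site, and a peak had to overlap by 1 bp. No human peak passed the end of a chromosome. Pileup and background were solved from fold and −log10 p for 100% of peaks, taking the p-value as a Poisson tail; PCR reads are not independent molecules, and no counting interval was made. Covered lengths were compared by an exact permutation test of eta squared with Benjamini-Hochberg adjustment over all tiles or genes (numpy 2.4.6, scipy 1.17.1, pandas 2.3.3), tested on simulated data. Samples were grouped by the cell line in their labels. Replicate numbers did not pair the libraries: over tiles the differences between replicates 1 and 2 correlated between −0.0272 and 0.00752 among lines.

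The HOX genes, the lists and the tests were chosen with earlier results of these data known. Genes named with all values were the best-ranked, first and last open member of each cluster and line and those open in 1 human line; others were added after their values were seen. One HOX gene is not analysed here.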

Additional observations from a re-analysis of the deposited data

How the results depend on the processing

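Depth is the main limit: HEK293T lists are the shortest, and a promoter without a peak there may lie under the detection limit. Of 111 alternative values, 82 gave the same direction and call, or for counts stayed within 1.5 times; the cause of the other changes was not tested. HOX promoters open in both libraries numbered 11 in GM12878, 8 in HFF1 and 16 in mESC among the 50000 strongest peaks, 12 in GM12878 with the canonical start site alone, and 12 in GM12878 and 15 in HFF1 with scaled pileups. For the windows, values are eta squared and adjusted p of the exact permutation test. In the exact permutation test HOXC passed with a −log10 q of at least 5 (0.972, adjusted p = 0.0236), with the 50000 strongest peaks (0.994, 0.0339), with a flank of 20 kb (0.952, 0.0392) and without GM12878 replicate 1 (0.98, 0.045), and ranged from 0.919 to 0.98 over libraries left out, with an adjusted p of 0.0558 to 0.103 otherwise. HOXB no longer passed with the 50000 strongest peaks (0.962, 0.061). Counting peaks instead of length in this test, HOXA (0.995, 0.114), HOXB (0.968, 0.0542) and HOXD (0.989, 0.0542) no longer passed. With scaled pileups HOXD no longer passed (0.931, 0.067), and HOXC moved furthest, to 0.323 with an adjusted p of 0.706 in the exact permutation test. Called promoters numbered 4 with the 50000 strongest peaks, 5 with scaled pileups and 4 with the canonical start site. Leaving out 1 library gave 0 to 6: 0 without GM12878 replicate 1 or 2, HFF1 replicate 1 or K562 replicate 1 or 2, 5 and 6 without HEK293T replicate 1 and 2, and 4 without HFF1 replicate 2.

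When replicate numbers entered as a replicate block, the 24 remaining pairings cannot give p under 0.0417. HOXA (0.992), HOXB (0.99) and HOXD (0.984) then had an adjusted p of 0.085, and 0 promoters were called over all genes, with a smallest adjusted p of 0.126 in the exact permutation test. The labels share only the number, and the pairing did not show in the data.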

Other observations

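The genes that write and read the state of the HOX clusters were open almost throughout. All 7 genes of Polycomb repressive complex 2 on the list, EZH1, EZH2, EED, SUZ12, JARID2, RBBP4 and RBBP7, had open promoters in all 4 human lines, as had all 6 of the Trithorax side, KMT2A, KMT2D, MEN1, ASH2L, WDR5 and DOT1L. Of 9 HOX partner genes of the PBX, MEIS and PKNOX families, 8 were open in GM12878, 7 in HEK293T, 8 in HFF1 and 9 in K562, and MEIS3 was open in both libraries of K562 only. Against this, the ParaHox genes, relatives of HOX outside the clusters, were open in 1 of 6 cases in GM12878 (GSX1), 3 in HEK293T (CDX2, PDX1 and GSX1), 3 in HFF1 (PDX1, GSX1 and GSX2) and 0 in K562. EVX1 and EVX2, which flank HOXA and HOXD, were open in no human line, with an EVX1 peak in 1 HFF1 library. Of 15 coding neighbours of the clusters, such as SKAP2, CBX5 and MTX2, 14 were open in GM12878 and 13 in each of the other human lines. For comparison, 71.9% of all coding genes were open in GM12878, 67.8% in HEK293T, 76.2% in HFF1 and 70.4% in K562.

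The non-coding genes of the clusters, 20 on the list, were open in 11 cases in GM12878, 10 in HEK293T, 12 in HFF1 and 11 in K562. The 14 long non-coding RNA genes among them were open in 8, 9, 11 and 10 cases in these lines, against 31.5%, 25.3%, 35.8% and 30.1% of 18756 such genes. The 6 microRNA genes were open in 3, 1, 1 and 1 cases, against 19.3%, 11.9%, 19.5% and 16.7% of 1877. HOTAIR, a long non-coding RNA of the posterior HOXC cluster known from fibroblasts, had a peak in both libraries of HFF1 only, with 1 library each of GM12878 and HEK293T. HAGLR, of the HOXD cluster, was open in HEK293T, HFF1 and K562 and without a peak in GM12878, like the HOXD genes around it. HOTTIP, beyond HOXA13, was open in GM12878, HEK293T and HFF1, and in 1 library of K562. MIR10A, in the HOXB cluster, was open in GM12878 and K562 and without a peak in HEK293T and HFF1. Their windows overlap those of HOX genes in part, and without strand the peaks cannot be assigned to either.

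Members of other cell type lists were also open. Of 3 genes of other blood cells, PTPRC was open in GM12878 and HFF1, LYZ in K562 and CD3E in no line. Of 3 epithelial genes, EPCAM and KRT18 were open in all 4 human lines, and CDH1 in GM12878 and HFF1, with a peak in 1 HEK293T library and none in K562. Of 2 endothelial genes, PECAM1 was open in GM12878 and K562, with a peak in 1 HFF1 library, and CDH5 in none. Their part in the HOX results was not tested.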
